A study of Mus musculus with 8 samples.

Results

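Part of the array carried probes that are named by no gene, only by a genome interval and a strand, for long intergenic noncoding transcription. The 16181 such probes covered 4607 stranded intervals, and 7573 of them (46.8%), in 3307 intervals, were well above background on at least 4 of the 8 arrays. Those 7573 probes are described here. They were chosen by their detection on these arrays, so their detection is given as a description and is not tested. Among the 39500 other probes of the array, 70.6% passed the same threshold. All intervals and probe positions are those of the array files on mouse genome build mm9. How the designers of the array picked the intervals is not given in the sources used here.

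RNA was extracted from the small intestine of mouse embryos of stage E18.5. The 4 controls had 1 floxed Rfx6 allele (Rfx6 fl/+, replicates 1, 3 and 4) or 2 (Rfx6 fl/fl, replicate 2), and no Cre is named for them. The 4 mutants were Rfx6 fl/fl with Ngn3-cre, which removes Rfx6, a transcription factor of endocrine cells, in cells that have expressed the endocrine progenitor gene Ngn3. Ngn3-cre is named for mutants only, so an effect of the transgene and one of the deletion cannot be told apart. Descriptions of mutants 2 to 4 name deletions of other Rfx genes, and the genotype given here is that of their titles. The sex of the embryos is not given. Xist, the RNA of the inactive X, was well above background at both of its probes in control replicates 2 and 4 and mutant replicates 1, 2 and 4, and not on the other 3 arrays, and its part in the results was not tested. Endocrine cells are scattered singly through the epithelium, and in whole tissue fewer cells of a type and less RNA per cell cannot be told apart. The comparison asks which transcripts of the fetal gut depend on Rfx6 in the endocrine lineage.

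Long intergenic noncoding RNAs are transcribed from the genome between protein-coding genes, often spliced and polyadenylated, and translated into no known protein. Many have been mapped from chromatin marks of active promoters and transcribed bodies. As a class they are present at lower levels than messenger RNAs, vary more between tissues, and are often kept in the nucleus. A few, such as Malat1, Neat1, Tug1 and Xist, are abundant or have known roles in nuclear bodies, chromatin or X inactivation. An interval can also hold an unannotated end of a neighbouring gene, a pseudogene or a repeat, so signal at an interval probe does not by itself name a noncoding RNA.

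Levels below are log2 processed intensity minus the log2 of the array's 75th percentile of intensity, so 0 is the 75th percentile, and differences are mutant minus control on that scale. The 75th percentile was an intensity of 788 to 1027 across arrays, and 60.9% to 70.7% of spots were well above background. The number of arrays, 4 a group, limits the precision. Mutant replicate 1 stood apart from the other arrays: its correlations with them across probes were 0.973 to 0.978, and its deviations from the group mean had an SD of 0.527, where other arrays had 0.229 to 0.307. Results that rest on it are given with and without it. All 12 listed genes of small intestine epithelium were detected. Of 12 listed hormone genes of endocrine cells, 8 were lower in mutants at a limma adjusted p under 0.05, and none higher. At the same threshold 2 of 19 tested endocrine factor genes and 1 of 16 granule and serotonin genes were lower, and none higher. The summed levels of these other lists overlapped between groups, at 4.24 to 4.34 in controls and 4.22 to 4.38 in mutants for factors. For granule and serotonin genes they were 6.75 to 6.79 and 6.55 to 6.93. The Rfx6 probe did not separate the groups (-3.23 ± 0.23 in controls and -3.73 ± 1.20 in mutants, SD, n = 4 each, limma adjusted p = 0.828). Its mutant SD came from replicate 1, at -5.52 against -3.37 to -3.02, and leaving that array out turned the difference from -0.50 to 0.10. The place of the probe relative to the floxed part is not given, so it does not check the genotype. The summed level of 8 pancreas acinar genes, of which 6 were detected, was 0.04 to 1.17 in controls and 1.53 to 3.84 in mutants. The 8 stomach genes, 5 of them detected, summed to 3.76 in mutant replicate 3 and to between -1.19 and -0.63 on the other arrays. Their part in the results below was not tested.

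The probe sequences on which several results turn are printed here as the array files give them, 5′ to 3′, with capitals for bases in a run of 20 or more that another probe of the array also holds. Of the 7573 probes, 794 (10.5%) hold such a run. The first 4 lie in intervals of opposite strand on chromosome 8 and belong to the interval with the single called difference and to its partner. Each pair shares a run, of 24 and 39 bases.
chr8:20020465-20020524 forward: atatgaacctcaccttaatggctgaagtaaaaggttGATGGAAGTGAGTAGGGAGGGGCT
chr8:19784465-19784524 reverse: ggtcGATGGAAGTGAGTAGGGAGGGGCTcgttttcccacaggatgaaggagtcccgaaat
chr8:20020652-20020711 forward: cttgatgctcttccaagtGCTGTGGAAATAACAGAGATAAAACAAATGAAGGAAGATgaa
chr8:19784313-19784372 reverse: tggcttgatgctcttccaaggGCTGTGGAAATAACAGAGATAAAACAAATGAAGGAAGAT

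The next 3 probes make up a whole interval on chromosome 1 in which every probe was lower in every mutant. The last of them has the same 60 bases as a probe the array names after the transcript AK048274, and so was measured under both names.
chr1:73007079-73007138 forward: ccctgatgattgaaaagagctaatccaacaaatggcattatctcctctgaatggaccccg
chr1:73007139-73007198 forward: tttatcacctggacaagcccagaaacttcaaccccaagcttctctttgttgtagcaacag
chr1:73007408-73007467 forward: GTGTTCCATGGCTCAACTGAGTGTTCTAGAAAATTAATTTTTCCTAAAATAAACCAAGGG

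A set from chromosome 9 shows the opposite case, an interval in which only the last probe printed gave signal on most arrays and was higher in mutants. These 3 probes share no run with any other.
chr9:57965134-57965193 reverse: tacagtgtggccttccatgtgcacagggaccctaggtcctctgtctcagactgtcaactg
chr9:57965228-57965287 reverse: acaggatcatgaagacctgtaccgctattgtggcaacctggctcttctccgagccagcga
chr9:57965289-57965348 reverse: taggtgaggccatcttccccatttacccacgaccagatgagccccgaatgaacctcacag

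The last set comes from chromosome 5, where the middle probe by position moved against the probes on either side of it. None of them shares a run with another probe.
chr5:105073746-105073805 forward: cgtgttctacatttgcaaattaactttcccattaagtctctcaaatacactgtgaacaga
chr5:105073810-105073869 forward: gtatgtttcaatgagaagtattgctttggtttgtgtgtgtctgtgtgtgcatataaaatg
chr5:105073876-105073935 forward: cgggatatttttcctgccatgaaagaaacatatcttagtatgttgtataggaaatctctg

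Detection was mostly all or none. Of the 16181 interval probes, 5878 (36.3%) were well above background on 0 arrays and 5738 on all 8. A further 1657 passed on 1 array. The 337 probes just inside the threshold, on exactly 4 arrays, had a median level of -5.55 (range -6.35 to -4.76), and the 434 just outside it, on 3 arrays, a median of -5.79 (range -6.81 to -4.81). Every probe was kept in 1232 intervals, some in 2075 and none in 1300. An interval held 1 to 10 probes, and its length ran from 62 to 7128487 bases with a median of 10676. The kept probes lay on all 19 autosomes and X, from 38.9% of the interval probes of chromosome 13 to 54.7% of those of chromosome 5. There were 3604 on the forward and 3969 on the reverse strand.

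**Figure D1:**
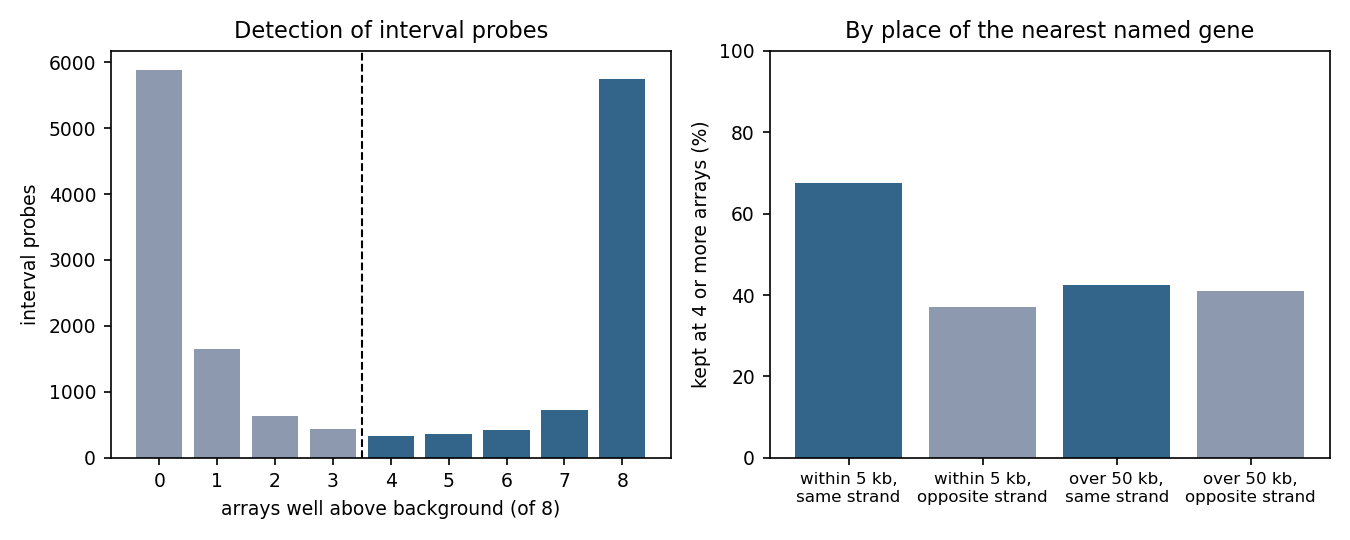
Left, number of interval probes by the number of arrays on which they were well above background, with the threshold at 4 arrays as a dashed line. Right, percent of interval probes kept, by distance to the nearest probe of a named gene and by its strand. The bars for 0 and 8 arrays, 5878 and 5738 probes, stand above the rest, and the same-strand bar within 5 kb reaches 67.6%.

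Where a kept probe lay close to a named gene, it was more often on that gene's strand. Of the 1628 interval probes within 5000 bases of a probe of a named gene on the same strand, 67.6% were kept, against 37.1% of the 1696 that lay as close on the opposite strand. Over 50000 bases from any named-gene probe the shares were 42.4% of 2428 on the same strand and 41.0% of 2187 on the opposite strand. So the strand went with detection near genes and hardly at a distance. The median distance to the nearest named-gene probe was 19378 bases for kept probes and 25532 bases for the others. Of the 3307 intervals with a kept probe, 83.1% held no probe of a named gene on either strand. A nearest gene whose symbol begins like that of a developmental transcription factor family (Hox, Fox, Sox, Gata and the like, a crude match of prefixes) was found for 3.14% of kept probes and 4.82% of the others. The kept probes had a median GC content of 45.0%, against 43.3%. All of these are descriptions of what the detection threshold kept, and probes of 1 interval share their place and often their transcript.

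Both strands of an interval often held a kept probe. Of 748 intervals with at least 3 probes on each strand, 538 had kept probes on both strands, 188 on 1 strand and 22 on neither. For this count 1 kept probe on a strand was enough, and 46.8% of all interval probes were kept. The count thus does not by itself show transcription of both strands. In 34 of the 748 every probe of 1 strand was kept and none of the other. Known noncoding genes gave examples of 1 strand kept and of both. The interval of Fendrr, an RNA of embryonic mesoderm transcribed away from Foxf1, had 5 of 5 probes kept on the gene's strand (reverse) and 0 of 5 on the forward strand, and the same counts held in an interval of Dleu2, the host gene of miR-15a and miR-16-1. The Tug1 interval was the other kind, with 8 of 9 probes kept on the strand of Tug1 and 9 of 10 on the opposite strand. So was a second Dleu2 interval, chr14:62263564-62307496, which overlaps the first. It had 4 of 4 probes kept on the strand of Dleu2 and 3 of 3 on the opposite strand, the latter at mean levels of -5.42 to -4.05. Over the 673 intervals with kept probes on both strands, the median differences of the strands had a Pearson r of 0.13, and 0.03 without mutant replicate 1, as a description over intervals that share the same 8 arrays. Hardly any interval probe was called between groups, so this low r cannot show whether the strands of 1 interval vary together.

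Mean levels of the kept probes ran from -6.35 to 7.88 with a median of -3.51, well below the 75th percentile of the arrays. Their SD over the 8 arrays had a median of 0.28. The 6 probes with the highest signal were at 7.13 to 7.88, and since the brightness of a probe depends on its sequence too, their order says nothing about amounts of RNA. The brightest lay in chr19:5771425-5848475 on the forward strand, in an interval that holds Malat1 and Neat1 on the opposite strand. These are abundant nuclear RNAs, Malat1 of splicing speckles and Neat1 of paraspeckles. That probe was at 7.88 ± 0.13 in controls and 7.89 ± 0.35 in mutants (SD, n = 4 each). The next, in chr19:5801802-5802597, was on the strand of both genes and between their probes, 6417 bases from that of Malat1. Genes were placed by their probes and not by their ends, so whether it lies within Malat1 was not tested. It was at 7.78 ± 0.21 and 7.48 ± 0.74, where the mutant SD came from replicate 1 at 6.41 against 7.64 to 8.07 in the other mutants. The remaining 4 lay in chr14:78924115-78938125 (forward), chr11:22681800-22707775 (reverse), chr17:17481706-17482457 (reverse) and chr6:116092274-116144199 (forward), between Akap11 and Dgkh, Tmem17 and B3gnt2, Gm6712 and Riok2, and Tmcc1 and 9530062K07Rik. The probes of chr14 and chr6 were 83.3% and 88.3% G and C. The probe of chr11 shares 45 bases with a probe of Rps16, a protein of the small ribosomal subunit encoded on chromosome 7, so its signal and that of Rps16 transcripts cannot be told apart here. None of these 6 was called, with differences of -0.30 to 0.20 and limma adjusted p of 0.828 to 0.990.

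The 5 steadiest probes differed by no more than 0.03 between the groups. In the Tet3 neighbourhood, chr6:83368261-83407280 (reverse) had values of 1.38 to 1.44 in controls and 1.40 to 1.44 in mutants, an SD of 0.02 over the 8 arrays. The other 4, beside Kif3b, Gpr137b-ps, Aldh18a1 and Rad18, had SDs of 0.04. At the other end were probes with 1 high control. In chr13:19618491-19618836 (reverse), 65262 bases from Epdr1, control replicate 2 was at -0.18 and the other 7 arrays lay between -4.78 and -4.38. Control replicate 2 was also the high array for chr8:12873805-12880007 (forward, beside Atp11a), at -0.60 against -3.89 to -3.07, and for chr2:36112819-36114110 (forward, beside Ptgs1), at -1.51 against -4.32 to -3.03. It was high as well for the probe beside Synpo, at -1.39 against -4.82 to -4.03. In chr4:145593253-145594254 (reverse) it was control replicate 4, at -1.38 against -4.62 to -4.04. In each case 1 control gave most of the spread. The mutants lay with the other controls except in chr2:36112819-36114110, where mutant replicate 2 was at -3.03 and the other controls at -4.32 to -4.04. Control replicate 2 is the only control with 2 floxed alleles, and the part of its genotype in these values was not tested.

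Between the groups the interval probes hardly moved as a class. Their median difference was 0.001, against 0.02 over all 35472 probes tested, and 90% lay between -0.59 and 0.36. At a limma adjusted p under 0.05 over all tested probes, 1 of the 7573 was called (0.0132%), and it was lower. The background was 15 of 35472 (0.0423%), 14 of them lower (0.0395%). With no adjustment 406 of the interval probes (5.36%) had p under 0.05, 183 lower and 223 higher, against 5.05% of all tested probes. A difference of at least 1 (a 2-fold change) was seen for 68 (0.898%), 52 lower and 16 higher, against 0.739% of all tested probes. Without mutant replicate 1 there were 39, of which 13 were lower and 26 higher. The 4 mutants and 4 controls did not overlap for 252 (3.33%), against 4.38% of all tested probes. Without mutant replicate 1, with 3 mutants against 4 controls, it was 426, of which 258 were higher and 168 lower. Groups with fewer arrays overlap less readily. No share over all tested probes was taken without that array, for this count or for the 39, so nothing is read from either. Of the 252, 142 were higher in mutants, where the background was 2.81%, and 110 lower, where it was 1.56%. These shares lie near or under those of all probes, and so are no result about intergenic probes as such. The labels number the embryos separately, and the p-values measure the spread between these samples.

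**Figure D2:**
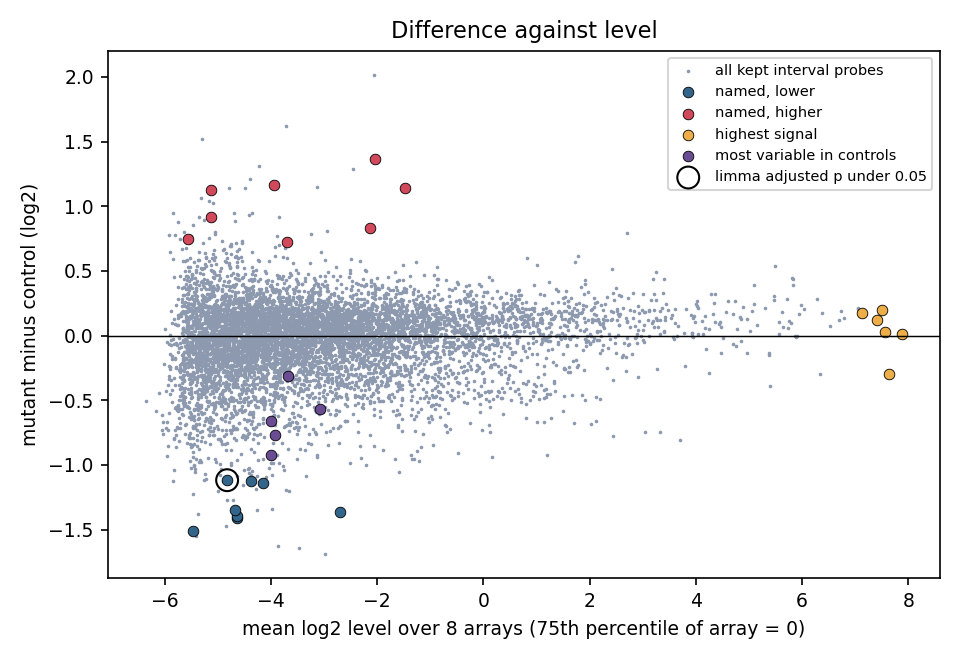
Difference between mutants and controls (log2, y axis) against mean level over 8 arrays (log2, 75th percentile of the array at 0, x axis) for the 7573 kept interval probes, each a point. The ringed point is the single probe with a limma adjusted p under 0.05, at -1.12. Coloured points are probes named for their difference, their signal or their spread in controls, and the 6 with the highest signal lie near 0.

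The single called probe lay at chr8:20020465-20020524, in the interval chr8:20020266-20021248 (forward), 25766 bases from 2610005L07Rik, which RefSeq lists as a transcribed pseudogene and which lies on the opposite strand. The nearest probe of that gene differed by -0.43 (-0.23 without mutant replicate 1) and its other tested probe by 0.07 (limma adjusted p = 0.828 and 0.839). It was at -4.02, -4.37, -4.32 and -4.35 in controls 1 to 4 and at -5.29, -5.27, -5.29 and -5.69 in mutants 1 to 4. All 4 mutants were below all 4 controls, by -1.12 (SE 0.13, limma adjusted p = 0.0491), and without mutant replicate 1 the difference was -1.15. It was well above background on 4 of 4 control and 2 of 4 mutant arrays, so the mutant values lie near the limit of detection. The second probe of the interval was at -5.52 to -5.09 in controls and -6.20 to -5.57 in mutants, a difference of -0.48 (adjusted p = 0.828). Within the first and second row of the slide, with 2 arrays of each group, the difference was -1.09 and -1.15. The call was lost when any 1 array was left out (limma adjusted p of 0.0558 to 0.242) or with the slide row as a block (0.0613), and with the background corrected by normexp the difference was -0.32 (adjusted p = 0.806).

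Its partner interval by sequence, chr8:19783770-19784669 (reverse), differed in the same direction. All 3 of its probes were lower in every mutant, by -0.73, -0.67 and -0.63, and their mean was -3.79 ± 0.15 in controls and -4.47 ± 0.17 in mutants (SD, n = 4 each). Over interval means the limma adjusted p was 0.214. Without mutant replicate 1 it differed by -0.67 too. As the sequences above show, 2 of these 3 probes share runs of 24 and 39 bases with the probes of the called interval, so the intervals may not be independent measurements.

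Both lie in a stretch of chromosome 8 that drew attention after its values were seen. It holds probes of 6820431F20Rik, Gm15319 and 2610005L07Rik. The longest interval there, chr8:19678750-20038750, spans 31 kept probes of 12 intervals. Of these 29 were lower in mutants and 2 higher, with a median of -0.60 and a range of -1.12 to 0.04, and 11 (35.5%) did not overlap between groups. Over all tested probes that share was 4.38%, and nothing follows from the gap, since the stretch was chosen for its low values. The median level of the 31 was -3.36, -3.08, -3.24 and -3.39 in controls and -4.53, -3.40, -3.70 and -3.64 in mutants. Mutant replicate 1 was the lowest array, and without it the median difference was -0.25, with 29 of 31 lower. The 15 other tested probes of the stretch, among them those of 6820431F20Rik and 2610005L07Rik, had a median of -0.40 and 12 of them were lower, but without mutant replicate 1 their median was -0.05 and 9 were lower. The brightest interval of the stretch, chr8:19792940-19798868 (forward), had a mean of 3.40 to 3.54 in controls, 0.98 in mutant replicate 1 and 3.16 to 3.32 in the other mutants. None of its 3 probes overlapped between groups, with a mean difference of -0.78 that was -0.21 without that array (limma adjusted p of the mean 0.825).

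**Figure D3:**
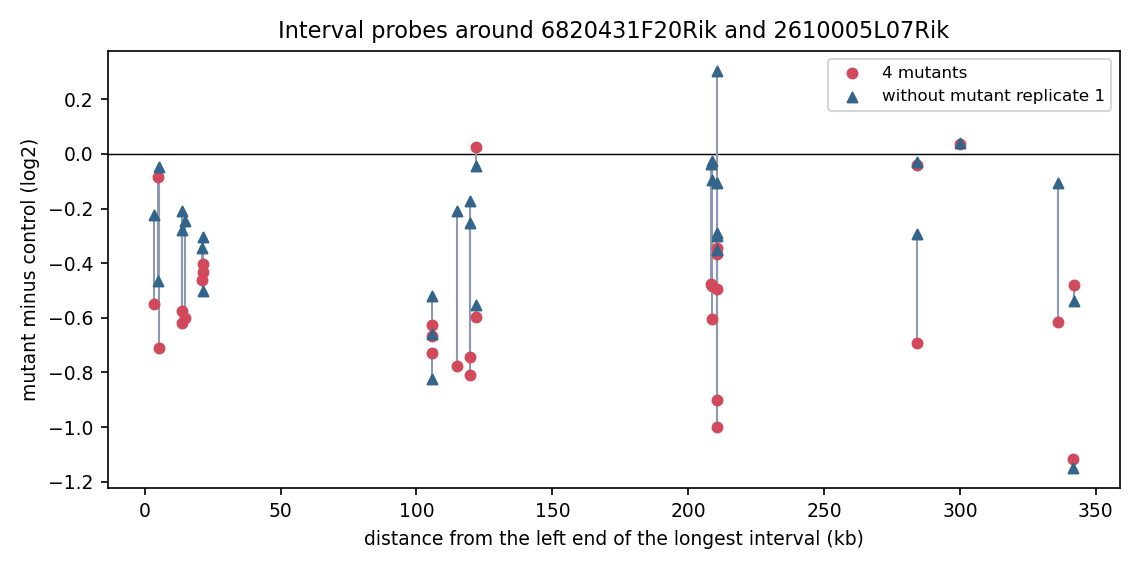
Difference between mutants and controls (log2) for the 31 kept interval probes of the stretch that holds 6820431F20Rik and 2610005L07Rik, by distance in kb from the left end of its longest interval. Circles use 4 mutants and triangles leave out mutant replicate 1, joined by a line for each probe. Of the circles 29 lie under 0, and most triangles lie nearer to it than their circle. The called probe, near the right end, is at -1.12 and -1.15.

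Outside chromosome 8, an interval on chromosome 1 was low in every mutant. In chr1:73004154-73007481 (forward), 54426 bases from Tnp1, a spermatid chromatin protein, and 102579 bases from Igfbp5, an insulin-like growth factor binding protein, all 3 probes were lower in every mutant, by -1.36, -1.35 and -1.14 (SE 0.25, 0.34 and 0.21, limma adjusted p of 0.318, 0.694 and 0.333). Their mean was -2.78, -3.68, -3.12 and -3.24 in controls and -5.07, -4.21, -4.07 and -4.59 in mutants. The mean difference was -1.28 (SE 0.25, limma adjusted p = 0.288), and -1.09 without mutant replicate 1. The probe that differed by -1.35 was well above background on all 4 controls and 2 mutants, and the others on all 8 arrays. With normexp the probes differed by -0.84, -0.42 and -0.43. Of the 16 probes named for a non-overlapping difference, 13 were over 1.5 times smaller under that background correction. The probe named AK048274 that has the same sequence as the probe at -1.36 gave -1.82 ± 0.37 and -3.15 ± 0.46 (SD, n = 4 each). Its difference was -1.33 (limma adjusted p = 0.365). Another probe named AK048274 was well above background on 3 arrays and was not tested. Igfbp5 itself was at 0.92 ± 0.25 and 0.93 ± 0.21, and Tnp1 at -4.78 ± 0.44 and -2.82 ± 2.00 (limma adjusted p = 0.994 and 0.828), both on the opposite strand. Without mutant replicate 1 the Tnp1 difference was 1.11 in place of 1.96. None of these passed the threshold.

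The other low probes rested more on mutant replicate 1. In chr9:96947862-96967726 (reverse, 30303 bases from Slc25a36, a mitochondrial nucleotide carrier) both probes were lower in every mutant. The first was at -3.47, -4.35, -3.91 and -4.02 in controls and -7.13, -4.60, -5.09 and -4.55 in mutants, a difference of -1.41 that was -0.81 without that array and -0.42 with normexp. In chr10:6480075-6603900 (reverse, beyond Plekhg1) 4 of 5 probes were kept and all 4 were lower, by -1.39 to -1.01. Of these 1 did not overlap, at -4.68 to -3.30 in controls and -6.41 to -4.84 in mutants, and its difference with normexp was -0.43. Their mean differed by -1.17 and by -0.74 without mutant replicate 1 (limma adjusted p of the mean 0.825 in both intervals).

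The chromosome 5 interval, chr5:105072936-105074001 (forward, between Thoc2l and Zfp951), held probes that differed both ways. Its outer probes by position were lower in every mutant, by -1.51 and -1.12 (limma adjusted p of 0.694 and 0.518), and with normexp by -0.38 and -0.46. These 2 probes were well above background on all 4 controls and on 2 and 3 of the mutants. The first was at -4.44, -4.79, -4.85 and -4.77 in controls and -7.44, -5.77, -6.28 and -5.40 in mutants. The probe between them was higher in every mutant, at 0.25 to 0.36 in controls and 0.43 to 0.99 in mutants (difference 0.25, adjusted p = 0.828). All 3 sequences have a GC content of 35.0%. Adjacent probes of this interval, on the same strand, thus differed in direction.

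**Figure D4:**
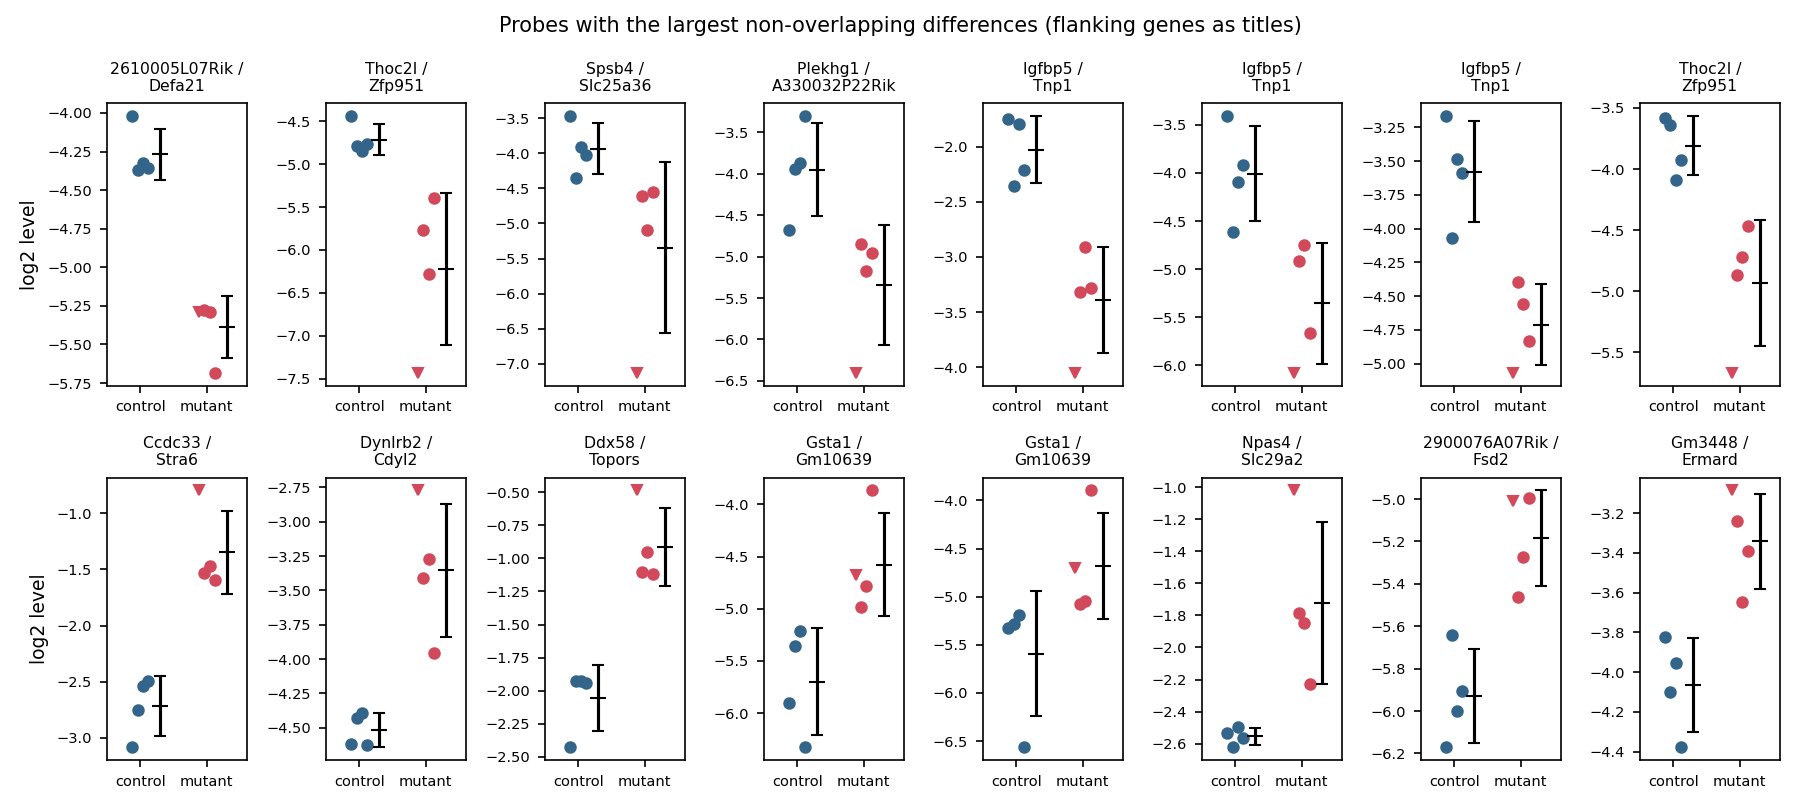
Log2 level of the 16 probes with the largest differences whose groups do not overlap, 8 lower (top row) and 8 higher (bottom row) in mutants, each panel titled by the named genes on its left and right. Points are arrays (blue controls, red mutants, a triangle for mutant replicate 1) and bars are the mean and SD of 4. In the top row mutant replicate 1 is the lowest mutant in each panel but the first, that of the called probe.

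Among probes whose groups did not overlap, the largest positive differences came from single probes of an interval. In chr9:57965115-57966614 (reverse), 354 bases from a probe of Ccdc33 that was not detected and 36412 bases from Stra6, the retinol uptake receptor, the kept probe was at -3.09, -2.75, -2.54 and -2.49 in controls and -0.80, -1.53, -1.47 and -1.60 in mutants. The difference was 1.37 (SE 0.21, limma adjusted p = 0.151). The other 2 probes of the interval, printed above with it, were each well above background on 1 array. In chr4:40194362-40202712 (reverse), 4826 bases from Topors, a ubiquitin and SUMO ligase, 1 probe was at -2.06 ± 0.25 in controls and -0.91 ± 0.29 in mutants (SD, n = 4 each), a difference of 1.14 (limma adjusted p = 0.175), while the other kept probes of the interval differed by -0.13 and 0.28. In chr8:119090566-119097735 (forward), 2573 bases from Cdyl2, 1 probe differed by 1.16 (limma adjusted p = 0.355) and the other kept ones by -0.20 and 0.17. With arrays weighted by their agreement these 3 probes passed the threshold (limma adjusted p of 0.0234, 0.0304 and 0.0445), and mutant replicate 1 then had a weight of 0.12. With normexp the 3 differences were 1.07, 0.94 and 0.59. As means of their kept probes the 3 intervals had limma adjusted p of 0.111, 0.458 and 0.825.

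An interval beside glutathione transferase genes was higher across all its probes. In chr9:78107225-78118850 (reverse), between Gsta1 and Gm10639, all 5 probes were kept and all 5 were higher, by 0.38 to 1.12. Their mean was -5.21, -5.05, -4.55 and -6.01 in controls and -4.40, -4.69, -4.67 and -3.91 in mutants, groups that overlap, with a difference of 0.79 (limma adjusted p = 0.825). Gsta1, a detoxifying enzyme, differed by 0.60 and Gm10639 by 0.55, on the opposite strand (adjusted p = 0.828 for both). With normexp the 2 non-overlapping probes of the interval differed by 0.35 and 0.32. These 2 probes were well above background on 2 and 3 of the controls and on all 4 mutants. The other named probes that were higher in every mutant lay beside Npas4 (chr19:5001448-5001810, reverse, 0.83), 2900076A07Rik (chr7:88668948-88678046, forward, 0.74) and Gm3448 (chr17:15132576-15147002, reverse, 0.72). The last shares 52 bases with a probe of another interval, and Gm3448 on the same strand differed by 0.66. None of the 3 was called (limma adjusted p of 0.759, 0.403 and 0.511), and with normexp they differed by 0.65, 0.23 and 0.39. The probe beside 2900076A07Rik was at -5.93 in controls and -5.19 in mutants. It was well above background on 1 control and 4 mutant arrays, so it was kept through the mutants and its control values lie near the limit of detection.

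Some intervals differed in 1 direction in every kept probe. Of 1204 intervals with at least 3 kept probes, the groups failed to overlap in 1 direction for every kept probe in 7 (0.581%), against 0.535% of the 2055 names of the array with as many tested probes. That share is near the background. Among the 7 were the interval on chromosome 1 and 2 of those in the chromosome 8 stretch. The other 2 that were lower were chr8:72076364-72077503 (reverse, between Gm10033 and Zfp868), at -1.32 ± 0.05 in controls and -1.83 ± 0.26 in mutants, and chr3:100363012-100369971 (reverse, with Man1a2 on either side), at 0.67 ± 0.05 and 0.25 ± 0.48. The latter interval also holds a probe of Man1a2 on its own strand, 426 bases from its nearest kept probe. Whether it reads Man1a2 transcripts was not tested. The mean of this interval was at 0.42 to 0.56 in mutants other than replicate 1, which was at -0.46. Of the 2 that were higher, 1 was chr9:114412295-114418384 (reverse), beside Trim71, at -1.26 ± 0.10 and -0.93 ± 0.11 (SD, n = 4 each throughout). As means these 3 intervals had limma adjusted p of 0.575, 0.825 and 0.767. Within the 1204 intervals the SD of the difference between probes had a median of 0.13, against an SD of 0.30 over all kept probes.

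Mutant replicate 1 was low for many interval probes, and this went with the base composition of the probe. In it 1180 of the 7573 (15.6%) lay more than 1 below the median of the other mutants and 89 above, against 8.01% below among the 27899 other tested probes. On the other 7 arrays 31 to 120 probes lay as far below the rest of their group. Of probes with a GC content up to 40%, 33.0% were that far below in mutant replicate 1, of those over 40 to 50%, 12.8%, and of those over 50%, 2.43%. On the other arrays the same shares were 0.44% to 1.53%, 0.36% to 1.99% and 0.41% to 1.19%. With probes put into 3 equal classes by control level, the shares were 16.6%, 14.8% and 15.3% from the lowest class to the highest. The median difference between groups was -0.11, 0.005 and 0.08 in the 3 GC classes with all arrays, and 0.02, 0.02 and 0.03 without mutant replicate 1. Of the 52 probes lower by at least 1, 27 had a GC content up to 40% and 1 over 50%.

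**Figure D5:**
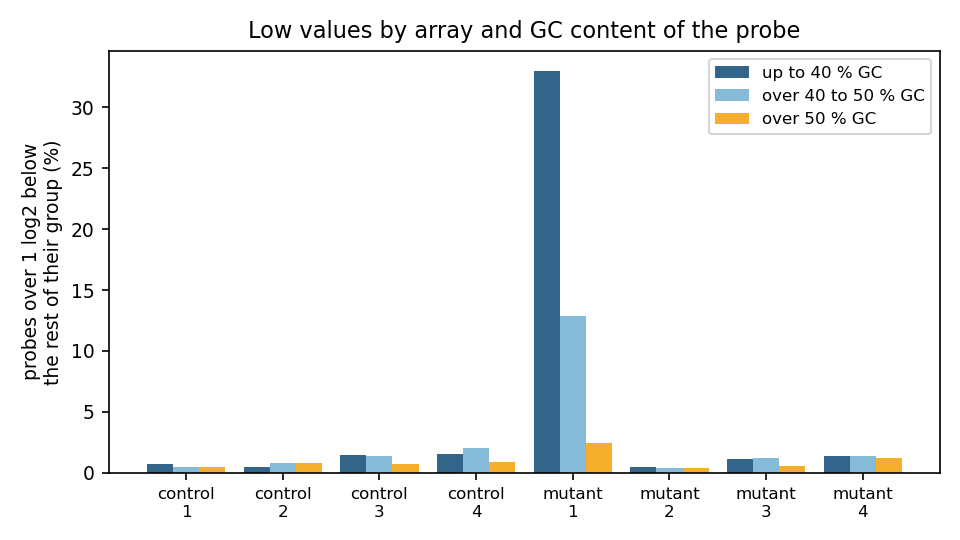
Percent of kept interval probes more than 1 log2 unit below the median of the rest of their group, for each array and by the GC content of the probe. Mutant replicate 1 reaches 33.0% for probes up to 40% GC, 12.8% for those over 40 to 50% and 2.43% for those over 50%. Every bar of the other arrays is under 2%.

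Differences of interval probes went with those of a neighbour on the same strand. For 394 kept probes within 1000 bases of a tested probe of a named gene on the same strand, the Pearson r between both differences was 0.71, and 0.47 without mutant replicate 1. For 165 such pairs on opposite strands it was 0.25, and 0.02 without it. At 1000 to 5000 bases r was 0.49 over 601 same-strand pairs and 0.03 over 375 opposite-strand pairs, and without mutant replicate 1 it was 0.22 and 0.05. At over 50000 bases on the same strand it was 0.26 over 850 pairs and -0.01 without that array. All pairs share the same 8 arrays and several interval probes share a neighbour, so these are descriptions across probes and not tests.

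Some intervals hold a probe of a known long noncoding gene from the list. On the gene's strand 88 of 108 interval probes were kept (81.5%), and on the opposite strand 63 of 118 (53.4%). None was called by limma on either strand, and 4 (4.55%) and 8 (12.7%) had an unadjusted p under 0.05, where 5.05% of all tested probes did. Between groups 1 (1.14%) on the gene's strand, at Terc, the RNA of telomerase, and 3 (4.76%) on the opposite strand, at Gas5, Mirg and the Malat1 and Neat1 interval, did not overlap, where the background was 4.38%. The reverse-strand interval of Tug1, chr11:3538125-3554450, rested on mutant replicate 1. Its 8 kept probes differed by -1.09 to -0.53 with all arrays and by -0.26 to 0.18 without it. The 6 probes of 2 shorter intervals of Tug1 differed by -0.38 to -0.02. The 5 kept probes of Dleu2 in chr14:62263564-62308286 (reverse) ran from -0.78 to -0.54 with all arrays and -0.11 to 0.17 without it. Norad, an abundant cytoplasmic RNA that binds Pumilio proteins, differed by 0.03 to 0.08 at its 3 probes in chr2:156213798-156216885 (reverse). The 5 Fendrr interval probes differed by -0.16 to 0.25.

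Of the 64 noncoding genes listed by name, 44 were on the array under their own symbol, and 59 probes of 32 were tested. None was called by limma, and the median difference of the 59 was 0.03. An unadjusted limma p under 0.05 was found for 9 of the 59, where 5.05% of all tested probes had one. H19, an imprinted RNA abundant in fetal tissue, accounted for 7 of the 9. All 7 of its probes were higher in every mutant, by 0.47 to 0.88 (limma adjusted p of 0.115 to 0.828), and by 0.35 to 0.83 without mutant replicate 1. A Neat1 probe was lower in every mutant, by -0.52 (adjusted p = 0.828), and by -0.29 without mutant replicate 1.

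Few interval probes lay beside endocrine genes. Of the genes in the hormone, factor and granule lists, a listed one was the nearest named gene of 5 interval probes, of which 1 was kept. It lay in chr8:71526892-71527500 (reverse), 34608 bases from Slc18a1, the vesicular transporter that loads serotonin into granules of enterochromaffin cells. Its level was -3.84, -4.42, -4.34 and -4.37 in controls and -3.98, -3.62, -4.55 and -4.67 in mutants. The groups overlapped, with a difference of 0.04 (SE 0.25, limma adjusted p = 0.972), and Slc18a1 itself differed by -0.03 (SE 0.17, adjusted p = 0.967), and by -0.20 without mutant replicate 1.

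Some interval probes touch annotated short RNAs and promoters. Of the kept probes, 4 share at least 20 bases with a miRNA hairpin of RefSeq on the same strand, those of Mir8110, Mir410, Mirlet7c-1 with Mirlet7c-2, and Mir8120, and differed by 0.20, 0.01, -0.20 and 0.10 (limma adjusted p of 0.828 to 0.990). The whole of 38 kept probes lay in the RefSeq window from 250 bases before to 50 after the start of a gene (assembly GRCm38.p6, matched by sequence) on its strand, and of 50 on the opposite strand. Among all interval probes these numbers were 84 and 90.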

How the data were processed

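RNA of 4 control and 4 mutant embryonic small intestines was hybridised to 8 one-colour Agilent arrays (design 028005) on 1 slide. Per the file headers, Feature Extraction 10.10.1.1 subtracted local background, detrended each array and wrote a processed intensity for each of 62976 spots. The deposited table of intensity values shared 1 distribution across arrays (median 123.313), with no normalization stated.

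Here spots of a probe were averaged after outlier spots were left out (117 to 157 per array), each array was scaled to its 75th percentile and log2 was taken. Interval probes were those named by chromosome, start, end and strand. Probes well above background on at least 4 of 8 arrays (35472) were tested two-sided with limma 3.58.1 in R 4.3.3 (lmFit, eBayes), Benjamini-Hochberg adjusted over all of them at 0.05. Arrays were the only replicates, and each count or list is read beside the same over all tested probes. The fit was tested on simulated data, where it recovered 61% of 100 changes of 1 log2 and 90% of 100 changes of 2, with 1 false call. The simulated noise was drawn separately for each probe and held no deviation of a whole array like that of mutant replicate 1.

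Array names were matched to RefSeq symbols for 26582 probes by accession, 2602 by symbol and 492 by an older symbol. The nearest named gene was the closest probe of a gene symbol on mm9. The probes named are any called, up to 8 in each direction with the largest difference among those well above background on all arrays of the higher group, not overlapping and of the same direction without mutant replicate 1, the 6 brightest, the 5 steadiest, the 5 most variable in controls, and those beside a listed endocrine gene. Others were chosen after their values were seen. The result of 1 interval is not reported here. The members and lists were chosen with earlier results of these data known.

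Alternatives were quantile normalisation, normexp correction (offset 50), the deposited values, no dim-probe filter or all 8 arrays, 1 probe per name, array weights, slide row or replicate number as a block, and leaving out each array.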

Additional observations from a re-analysis of the deposited data

Results flagged for a closer look

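In 9 of the 66 groups of 4 arrays examined for the named probes, 1 array lay farther from its group than the critical gap allows. Chance gives about 1 in 20 for groups not chosen by their values, which does not apply here: the probes were named by their values, and those most variable in controls gave 2 of the 9. Control replicate 1 was the array in 4 of them. In the called probe of chr8:20020266-20021248 it was at -4.02, above -4.37 to -4.32 in the other controls, while mutant replicate 4 was at -5.69, below -5.29 to -5.27. Beside Topors, in chr4:40194362-40202712, control replicate 1 was at -2.43, below -1.94 to -1.92. In the bright probe of chr11:22681800-22707775 it was at 7.27, below 7.44 to 7.45, and beside Slc18a1, in chr8:71526892-71527500, at -3.84, above -4.42 to -4.34.

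Control replicate 2 stood out in chr13:19618491-19618836, at -0.18 against -4.78 to -4.56 in the other controls, and in chr2:36112819-36114110, at -1.51 against -4.32 to -4.04. Mutant replicate 1 stood out in chr9:57965115-57966614, at -0.80 against -1.60 to -1.47. Control replicate 4 stood out beside Gsta1, in a probe of chr9:78107225-78118850, at -6.57 against -5.33 to -5.19.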

How the results depend on the processing

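The single call among interval probes was lost, to 0 calls, under quantile normalisation, normexp correction, the deposited values, no filter on dim probes, detection on all 8 arrays, the slide row or replicate number as a block, the mean of the probes of each name (chosen after seeing the data) and each of the arrays left out (0 to 0). Array weights gave 4 calls, and 1 probe per name gave 1. For the called probe the adjusted p ran from 0.0146 to 0.806 over these settings, and the cause was not tested. The median difference moved by less than the spread between replicates in every setting, from -0.012 to 0.022 with an array left out. Of all tested probes 15 were called, 24 with normexp, 44 with array weights, 7 with the replicate block and 9 to 20 with an array left out. Same-numbered controls and mutants did not deviate together (r of -0.0865, 0.0904, 0.00313 and 0.0996). No pairing of embryos by number was seen, though with 4 arrays a group these values cannot exclude one. Of 270 results on 17 named probes under alternatives, 266 kept their direction, 14 were no longer past the threshold and 3 came past it. The 4 that turned were those of the probe beside Slc18a1, at -0.02, -0.002, -0.03 and -0.15 without control replicate 2, control replicate 4, mutant replicate 1 and mutant replicate 2 (range with an array left out -0.154 to 0.195). Signal near background limits what the dim probes can show.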

Other observations

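Some interval probes outside the rule for naming were chosen after their values were seen. In chr3:96074625-96086375 (forward, between H2bc18, a histone gene, and Fcgr1, an Fc receptor gene) all 5 probes were low in control replicate 2 and mutant replicates 1 and 2, and high on the other 5 arrays. The probe at chr3:96082736-96082795 had the largest spread of the 7573, an SD of 3.01 over the arrays. It was at -1.47, -7.75, -1.65 and -1.34 in controls and -7.42, -7.27, -2.06 and -1.96 in mutants. The lowest difference of all, -1.69 (SE 1.20, limma adjusted p = 0.828), was in the same interval and came from how these arrays fell into groups of 4, with 1 low control and 2 low mutants.

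The highest difference, 2.02 (SE 1.59, limma adjusted p = 0.828), came from a single array. In chr8:72663625-72673010 (reverse, beside Borcs8) 1 probe was at 4.62 in mutant replicate 4 and between -3.27 and -2.48 on the other 7 arrays. A probe that overlaps it, at chr8:72668925-72668984, was at -3.69 in mutant replicate 4 and between -3.97 and -3.24 elsewhere.

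A probe in chr12:110738120-110769295 (forward), between Dlk1 and Meg3, was well above background in all 4 mutants and no control. It passed the detection rule through the mutants alone, so this contrast is a description and not a test. It was at -5.84, -5.88, -6.37 and -5.28 in controls and -5.15, -5.60, -4.91 and -3.45 in mutants, so the groups overlap. The difference was 1.07 (SE 0.44, limma adjusted p = 0.828). A lower bound on the fold between means, 1.99, takes for each control array the higher of its lowest signal well above background and the probe's own. The bound does not allow for the spread between arrays. The other 4 probes of the interval were not kept. The opposite case, all 4 controls and no mutant, was a probe in chr8:37582187-37621987 (reverse), between Trmt9b and Dlc1, kept through the controls alone. It was at -5.81 to -4.87 in controls and -6.07 to -5.43 in mutants, groups that overlap. The difference was -0.34 (SE 0.23, limma adjusted p = 0.828), and the bound, taken in the same way for the mutant arrays, was 1.15-fold.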
